A study of Mus musculus with 5 samples.

Results

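Mitochondrial ribosomal proteins were examined in whole-heart RNA as the 76 genes whose annotated symbol begins with Mrpl (47 genes, large subunit) or Mrps (29 genes, small subunit) followed by a digit, out of 18193 genes with a probe set of their own on an Affymetrix mouse genome array. Membership was set by the symbol alone, although the family was chosen with earlier results of these data known. A gene with several probe sets was read from the one brightest on average. The series asked which heart genes differ while lupus nephritis is present. It compared 3 hearts from female NZB_W mice with 2 hearts from female NZW mice, and the titles call the arrays of a group biological replicates. The NZB_W animals were 12 to 15 weeks old, had lupus nephritis and were scored as having moderate kidney injury. The NZW animals were of matched age and had healthy kidneys, and all hearts were bled and perfused with saline before RNA extraction. NZB_W mice are the F1 cross of NZB with NZW and develop lupus-like disease spontaneously, so the controls are 1 of the parental strains and strain and disease cannot be told apart. In whole-heart RNA, fewer cells of a type and less RNA per cell cannot be told apart either.

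The mitochondrial ribosome translates the few messenger RNAs encoded by mitochondrial DNA, all of which give core subunits of the respiratory chain and the ATP synthase. Its ribosomal RNAs are made inside the organelle, whereas every one of its proteins is encoded in the nucleus, translated in the cytosol and imported. Part of the proteins descend from bacterial ribosomal proteins and the others are specific to mitochondria. Heart muscle depends on oxidative phosphorylation, and inherited defects of several of these proteins cause cardiomyopathy in humans.

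No mitochondrial ribosomal protein gene passed the test between NZB_W and NZW hearts, and the 76 measured differences were small and mostly of the same sign. The mean was lower in NZB_W for 70 genes and higher for 6, or 92.1% lower, beside 54.5% of all 11902 genes tested. The median log2 difference was -0.11 for the members and -0.014 for all genes, and single members ran from -0.44 to 0.27. With limma, 0 members had an adjusted p under 0.05, beside 1 of 11902 genes (0.00840%), and the smallest adjusted p of a member was 0.726. An unadjusted p under 0.05 was found for 4 members (5.26%), beside 5.55% of all genes. Of these, 3 were lower in NZB_W, beside 3.03% of all genes, and 1 was higher, beside 2.51%. By these counts the members stood near the background. All 76 genes were measured at bright levels, with means over the arrays from 7.18 to 12.32 on the log2 scale, and all exceeded the array median on each of the 5 arrays.

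The arrays were precise enough to bound these differences. The SE of a member's difference had a median of 0.100 and ran from 0.057 to 0.35. Every 95% interval lay within a 2-fold change in either direction, and 63 of the 76 lay within a 1.5-fold change. The plot of all members shows the intervals for both subunits.

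**Figure D1:**
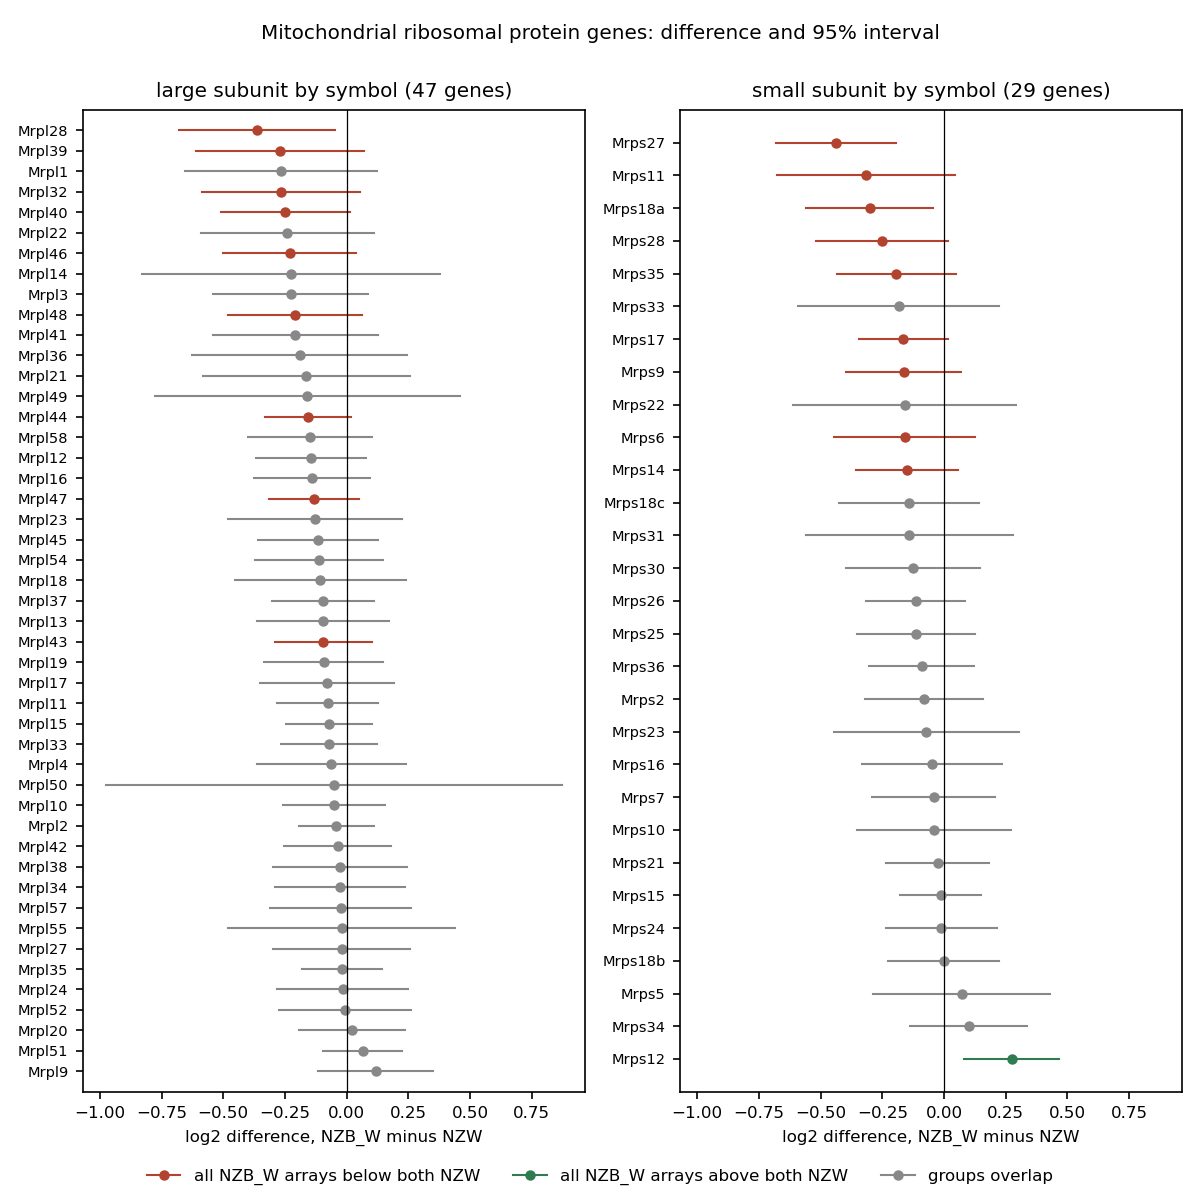
Log2 difference, NZB_W minus NZW, of 76 mitochondrial ribosomal protein genes (points) with limma's 95% intervals (lines), large subunit on the left and small subunit on the right, sorted by difference. Most points lie left of 0 and most intervals cross it; coloured genes are those whose 3 NZB_W values all lie on the same side of both NZW values, 18 below and 1 above.

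The arrays of a group differed among themselves. Relative to each gene's mean over the 5 arrays, the median of the members was -0.032, 0.061 and -0.15 on NZB_W arrays 1, 2 and 3, against 0.031 and 0.094 on NZW arrays 1 and 2. Over all genes tested these medians were -0.028, 0.0040 and 0.0052 on NZB_W arrays against 0.0038 and 0.0062 on NZW arrays. On NZB_W array 1 the members thus lay close to all genes. For the members the groups overlapped, because NZB_W array 2 lay above NZW array 1. NZB_W array 3 was the lowest array for 56 of the 76 genes and NZW array 2 the highest for 39, while NZB_W array 2 was the highest for 27. NZB_W array 2 exceeded NZW array 1 in 50 genes and NZW array 2 in 33.

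The arrays at the extremes also stood apart on the array's own control probe sets for beta-actin. The 5' minus 3' log2 difference of beta-actin, which becomes more negative as RNA is degraded or less fully copied, was -0.88, -0.89 and -1.31 on NZB_W arrays 1, 2 and 3, against -0.89 and -1.19 on NZW arrays 1 and 2. For GAPDH it was 0.17, 0.11 and -0.16 on NZB_W arrays against 0.15 and 0.048 on NZW arrays, where NZW array 2 lay nearer the others than NZB_W array 3. On beta-actin NZB_W array 3 and NZW array 2 shifted the same way, whereas for the members they lay at opposite ends. Array-to-array correlations over the tested genes ran from 0.972 to 0.994, the lowest of them between NZB_W array 3 and NZW array 2. Every pair with NZB_W array 3 lay at 0.982 or below, and every other pair at 0.984 or above. On the first principal component, the main axis of variation over the tested genes, NZB_W array 3 stood at 30.36. The other arrays lay between -15.4 and -4.03, so NZB_W array 3 stood furthest apart. Without NZB_W array 3, the median difference of the members was -0.041 and 51 of 76 genes were lower in NZB_W. Without NZW array 2 it was -0.068, with 65 genes lower. Without both of these arrays (a choice made once the values were known) it was -0.016 with 42 genes lower, beside -0.014 for all genes. These were the lowest NZB_W and the highest NZW array for the members, so leaving them out was bound to raise the members' median difference. Values without both arrays, here and below, are therefore descriptions and no separate check of the members' lower means.

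**Figure D2:**
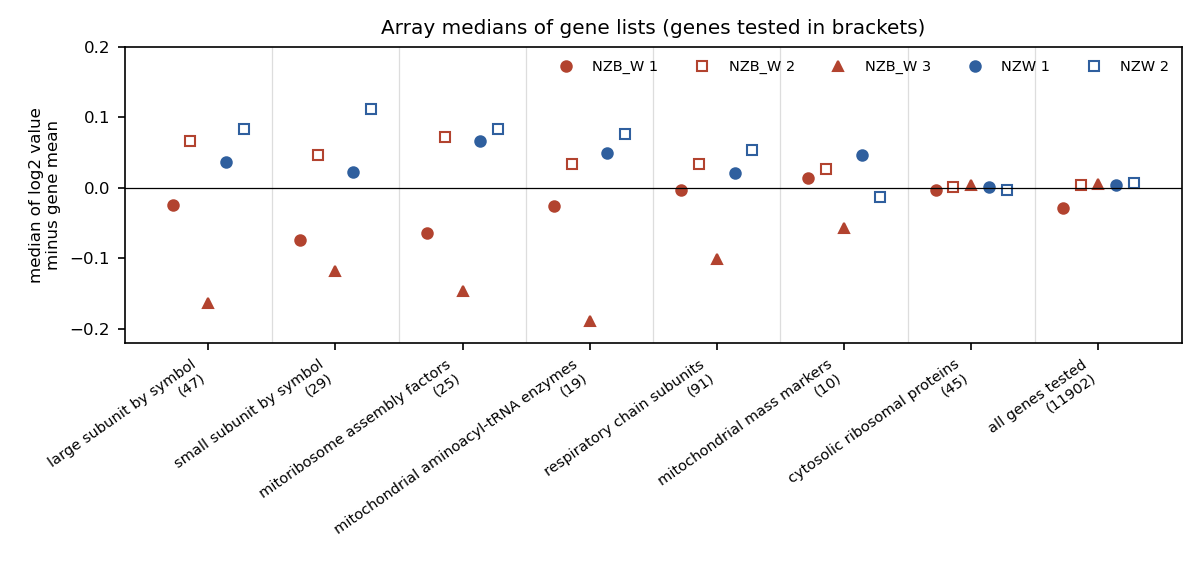
Median, over the genes of each list, of the log2 value minus the gene's mean over 5 arrays, for each NZB_W array (red) and each NZW array (blue). In both subunits, the assembly factors, the aminoacyl-tRNA enzymes and the respiratory chain genes, NZB_W array 3 is lowest and NZW array 2 highest. In these lists NZB_W array 2 lies above NZB_W array 1. Cytosolic ribosomal proteins stay near 0 on every array, and all genes stay near 0 except on NZB_W array 1 (-0.028).

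Other cell types also differed between arrays. Markers of macrophages were higher on average in NZB_W hearts for 10 of 10 genes, with a median log2 difference of 0.61 and a summed linear level of 4721 to 8182 on NZB_W arrays against 3114 and 4390 on NZW arrays. Their highest array was NZB_W array 3 and their lowest NZW array 2, whereas these lay at the opposite ends for the mitochondrial ribosomal proteins. The order between the ends was not reversed throughout, because NZB_W array 2 lay above NZW array 1 in both lists. Red blood cell markers Alas2 and Slc4a1 summed to 268 to 1427 on NZB_W arrays against 139 and 161 on NZW arrays. Fibroblast markers summed to 9964 to 16312 on NZB_W arrays against 11473 and 12642 on NZW arrays, the highest sum again on NZB_W array 3. There the collagen genes Col1a1 and Col3a1 read 9.69 and 12.41, against 6.79 to 7.67 and 10.26 to 11.11 on the other 4 arrays. Of the 5 fibroblast genes, 3 were higher on average in NZB_W and 2 lower. Lum, a lower one, had all NZB_W values below NZW (log2 difference -0.26, SE 0.087). Endothelial markers were higher on average in NZB_W for 4 of 4 genes (median 0.14), with sums of 1661 to 2024 on NZB_W arrays against 1534 and 1746 on NZW arrays. The 7 cardiomyocyte markers, which include the contractile genes Myh6 and Tnnt2, read 11.88 to 14.26 and had a median log2 difference of -0.020. They summed to 97718 to 100853 on NZB_W arrays against 103523 and 96086 on NZW arrays. The brightest of them lay close to the highest deposited value, 14.33, and whether differences are compressed there was not tested. The part of RNA quality or of other cell types in the members' differences was not tested.

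In 18 members (23.7%) all 3 NZB_W values lay below both NZW values, beside 9.83% of all genes tested, and in 1 member (1.32%) they lay above both, beside 7.60% of all genes. These 18 genes were divided evenly, with 9 in each subunit. The count moved with the arrays used. It was 18 without NZB_W array 3, beside 17.4% of all genes, 19 (25.0%) without NZB_W array 1, beside 12.0%, and 20 (26.3%) without NZW array 2, beside 21.2%. It was 50 members (65.8%) without NZB_W array 2, beside 18.4% of all genes, and 42 members (55.3%) without NZW array 1, beside 26.3%. Without both NZB_W array 3 and NZW array 2 it was 20 members (26.3%), under the 31.8% of all genes. That setting leaves out the lowest NZB_W and the highest NZW array for the members, so it is no check on the other counts.

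**Figure D3:**
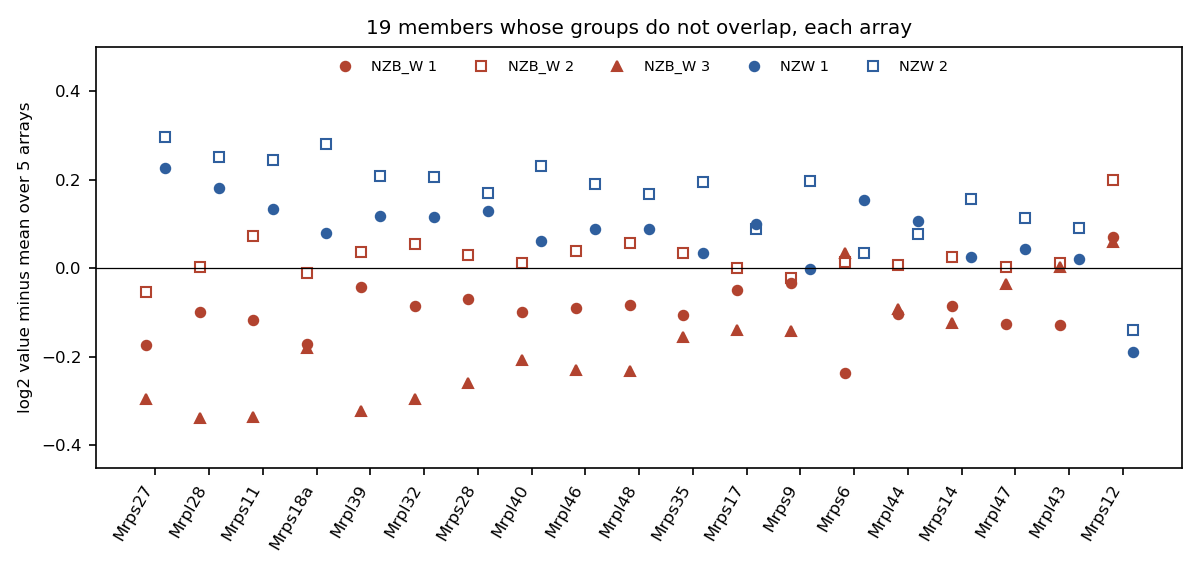
Log2 value minus the gene's mean over 5 arrays, for the 19 members whose groups do not overlap, sorted by difference, with NZB_W arrays in red and NZW arrays in blue. Mrps27 at the left has the widest separation below and Mrps12 at the right is the gene whose NZB_W values all lie above; NZB_W array 3 is the lowest point in most of the others.

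Among small subunit genes, Mrps27 had the largest difference and the smallest p of all members. It encodes a mitochondria-specific protein with pentatricopeptide repeats, a fold that binds RNA. Its log2 values were 7.22, 7.34 and 7.10 on NZB_W arrays and 7.62 and 7.69 on NZW arrays, so every NZB_W heart lay below both NZW hearts. NZB_W hearts averaged 7.22 ± 0.12 (SD, n = 3) and NZW hearts 7.66 ± 0.051 (SD, n = 2), which is a difference of -0.44 on the log2 scale (SE 0.093, limma unadjusted p = 0.00610, adjusted p = 0.726), or 1.36-fold lower. The difference was between -0.50 and -0.38 with any single array left out, and -0.34 without both NZB_W array 3 and NZW array 2.

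Mrps12 was the member with the opposite pattern. It encodes the homolog of bacterial S12, a protein of the decoding centre. Its values were 8.76, 8.89 and 8.75 on NZB_W arrays and 8.50 and 8.55 on NZW arrays, with every NZB_W heart above both NZW hearts. The log2 difference was 0.27 (SE 0.073, limma unadjusted p = 0.0151, adjusted p = 0.786), or 1.21-fold higher. It ran from 0.23 to 0.30 with any single array left out and was 0.32 without both extreme arrays. A single probe set of a type that can match several transcripts represents this gene.

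The 3 genes named Mrps18 are homologs of bacterial S18 whose products occupy different places: Mrps18a protein is found in the large subunit, and Mrps18b and Mrps18c proteins in the small one. Mrps18a read 9.21, 9.37 and 9.20 on NZB_W arrays and 9.46 and 9.66 on NZW arrays, without overlap (log2 difference -0.30, SE 0.098, limma unadjusted p = 0.0303, adjusted p = 0.859). Leaving out NZW array 2 gave -0.20 for Mrps18a, and leaving out both extreme arrays gave -0.17. Mrps18c read 9.67, 9.78 and 9.64 against 9.70 and 9.97, with overlap (-0.14, SE 0.11). Mrps18b read 8.36, 8.58 and 8.47 on NZB_W arrays against 8.47 on both NZW arrays, and its difference was -0.0021 (SE 0.085). The 3 paralogs thus had different point estimates, and the difference between them was not tested.

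The promoters of the 4 members with an unadjusted p under 0.05 (Mrps27, Mrps12 and Mrps18a above, and Mrpl28 of the large subunit, described below) are shown to compare their sequence elements, of kinds known from nuclear genes for mitochondrial proteins. Windows run from up to 250 bases before the annotated start, or from the neighbouring transcript where that is nearer, to 30 bases after it, and are given 5' to 3' on the gene's strand from RefSeq, build GRCm38.p6. Mrps27 lies at chr13:99344648-99344815 on the plus strand, Mrps12 at chr7:28741792-28741998 on the minus strand, Mrpl28 at chr17:26123253-26123532 on the plus strand and Mrps18a at chr17:46110754-46111033 on the plus strand. Capitals mark matches, on either strand, to CCGGAAG (the core site of ETS factors such as the nuclear respiratory factor GABP) or to the 11-letter YY1 element that holds ATGGCGGC. In Mrps27 and Mrps18a the YY1 element follows the annotated start, and in the Mrpl28 window there was no match.
Mrps27: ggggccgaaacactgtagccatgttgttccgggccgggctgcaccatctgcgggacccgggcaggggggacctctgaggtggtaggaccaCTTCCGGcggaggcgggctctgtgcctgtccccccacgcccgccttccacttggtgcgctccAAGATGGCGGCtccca
Mrps12: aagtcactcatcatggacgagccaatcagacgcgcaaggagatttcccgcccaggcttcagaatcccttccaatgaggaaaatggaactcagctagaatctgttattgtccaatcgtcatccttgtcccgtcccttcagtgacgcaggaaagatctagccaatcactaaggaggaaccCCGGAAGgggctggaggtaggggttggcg
Mrpl28: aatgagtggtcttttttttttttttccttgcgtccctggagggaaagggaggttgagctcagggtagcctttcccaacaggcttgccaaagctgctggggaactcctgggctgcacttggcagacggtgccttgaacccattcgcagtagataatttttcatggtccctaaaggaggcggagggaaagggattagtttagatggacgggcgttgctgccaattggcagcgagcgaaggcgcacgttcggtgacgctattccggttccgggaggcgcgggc
Mrps18a: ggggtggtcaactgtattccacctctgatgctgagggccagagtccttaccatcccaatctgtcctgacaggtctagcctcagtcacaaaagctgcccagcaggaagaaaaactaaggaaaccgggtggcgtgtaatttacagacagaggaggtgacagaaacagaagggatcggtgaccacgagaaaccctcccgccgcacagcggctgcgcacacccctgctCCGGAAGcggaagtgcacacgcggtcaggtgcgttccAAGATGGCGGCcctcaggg

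Such elements were present across the gene family. Of the 67 members matched in the promoter table, 25 (37.3%) held CCGGAAG within 250 bases before to 50 bases after the start, beside 19.2% of tested genes and 9.93% of all 27025 promoters. The YY1 element was found in 7 members (10.4%), beside 2.78% of tested genes and 1.17% of all promoters. The element of nuclear respiratory factor NRF1, GCGCA and GCGC separated by any letter, was found in 12 members (17.9%), beside 11.1% of tested genes and 5.19% of all promoters. At least 1 of the 3 elements was found in 37 members (55.2%), beside 29.7% of tested genes and 14.8% of all promoters. Of the 16 matched members whose NZB_W values all lay below NZW, 9 held one, close to the share of all members. Both Mrps27, lower in NZB_W, and Mrps12, higher in NZB_W, held the ETS core. Both strands were searched, a promoter with several elements counted under each, and a match is a description of the letters only.

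Mrps11, which encodes the homolog of bacterial S11, shares its promoter with the large subunit gene Mrpl46. Mrps11 read 7.72, 7.91 and 7.50 on NZB_W arrays and 7.97 and 8.08 on NZW arrays, a log2 difference of -0.32 (SE 0.14, limma unadjusted p = 0.0725). Mrpl46, a mitochondria-specific protein, read 8.83, 8.96 and 8.69 on NZB_W arrays and 9.01 and 9.11 on NZW arrays, a log2 difference of -0.23 (SE 0.10, limma unadjusted p = 0.0789). Neither gene overlapped between groups, and in both NZB_W array 3 was lowest and NZW array 2 highest. Without both extreme arrays the Mrps11 difference was -0.16. The starts of the 2 genes lie 42 bases apart on opposite strands, and the window around them, chr7:78783059-78783160 of GRCm38.p6, is shown on the Mrps11 (plus) strand, with none of the 3 elements inside it. The YY1 element that Mrps11 holds in the wider window counted above lies further upstream, beyond the start of Mrpl46 and outside the letters shown.
Mrps11 and Mrpl46: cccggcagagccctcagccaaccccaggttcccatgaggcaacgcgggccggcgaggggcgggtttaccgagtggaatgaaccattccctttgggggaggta

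Head-to-head neighbours were compared for the other members too. Of the 76 genes, 25 had a divergent neighbour whose start lay within 1000 bases, and for 18 of them the neighbour was bright enough to test. Mrpl40 and Hira start 113 bases apart, and both had all NZB_W values below NZW. Mrpl40, a large subunit gene of the chromosome segment whose human counterpart is deleted in 22q11 syndrome, had a log2 difference of -0.25 (SE 0.10), and Hira, a histone chaperone gene of the same segment, -0.32 (SE 0.10, limma unadjusted p = 0.0253). Mrpl32 and the proteasome gene Psma2, 205 bases apart, differed by -0.27 (SE 0.12) and -0.25 (SE 0.10), again without overlap in either. In other pairs the estimates were far apart. Mrps27 stood at -0.44 and its neighbour Ptcd2, which encodes another mitochondrial pentatricopeptide repeat protein, at 0.031 (SE 0.092). Mrps12 stood at 0.27 and Sars2, the mitochondrial seryl-tRNA synthetase gene 147 bases away, at -0.12 (SE 0.14). The pairs named here were chosen after their values were seen.

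Other small subunit genes without overlap had smaller differences. Mrps28 had -0.25 (SE 0.10), with 9.93, 10.03 and 9.74 on NZB_W arrays against 10.13 and 10.17 on NZW arrays. Mrps35 had -0.19 (SE 0.092), Mrps17 -0.17 (SE 0.069), Mrps9 -0.16 (SE 0.089), Mrps6 -0.16 (SE 0.11) and Mrps14 -0.15 (SE 0.079). Mrps17, Mrps9, Mrps6 and Mrps14 encode homologs of the bacterial proteins with those numbers. Mrps30, whose protein sits in the large subunit despite its name, differed by -0.13 (SE 0.10), and Mrps36, whose protein is now known as a component of the 2-oxoglutarate dehydrogenase complex, by -0.091 (SE 0.081), both with overlap. Besides Mrps12, the small subunit genes with a higher mean in NZB_W were Mrps34 at 0.100 (SE 0.091) and Mrps5 at 0.072 (SE 0.14).

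In the large subunit, Mrpl28 had the largest difference. It encodes the homolog of bacterial L28. Its values were 10.09, 10.19 and 9.85 on NZB_W arrays and 10.37 and 10.44 on NZW arrays, without overlap. NZB_W hearts averaged 10.04 ± 0.18 (SD, n = 3) and NZW hearts 10.40 ± 0.050 (SD, n = 2), which is a difference of -0.36 on the log2 scale (SE 0.12, limma unadjusted p = 0.0318, adjusted p = 0.859). The gene has 3 bright probe sets, and the one read here is of a type that can match several transcripts. The other 2 gave -0.31 (SE 0.14) and -0.079 (SE 0.080), both with overlap between groups. Without both NZB_W array 3 and NZW array 2 the Mrpl28 difference was -0.23.

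Genes for proteins around the exit of the peptide tunnel, where the nascent chain meets the inner membrane, were lower on average in NZB_W for 8 of 8 genes (median -0.13 on the log2 scale). Mrpl39, a mitochondria-specific protein of the large subunit, read 11.59, 11.67 and 11.31 on NZB_W arrays and 11.75 and 11.84 on NZW arrays (-0.27, SE 0.13). Mrpl44, which has a ribonuclease III fold and is mutated in a human cardiomyopathy, read 9.90, 10.01 and 9.91 against 10.11 and 10.08 (-0.16, SE 0.066). Mrpl47, the homolog of bacterial L29, read 9.55, 9.68 and 9.64 against 9.72 and 9.79 (-0.13, SE 0.070). In these 3 of 8 genes (37.5%) no NZB_W value reached the NZW values, beside 23.7% of all members and 9.83% of all genes tested. That holds for the brightest probe set of each gene. The other bright probe set of Mrpl39 overlapped between groups (-0.27, SE 0.18). Other bright probe sets of Mrpl44 gave -0.17 and -0.0038 with overlap and -0.14 without. Mrpl45, which anchors the ribosome to the membrane, overlapped between groups (-0.12, SE 0.093), as did Mrpl17, Mrpl22, Mrpl23 and Mrpl24 (-0.24 to -0.015).

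The stalk that recruits translation factors was represented by 4 genes, all overlapping between groups. Mrpl12, the homolog of bacterial L7/L12, read 10.40, 10.55 and 10.50 on NZB_W arrays and 10.55 and 10.70 on NZW arrays (-0.15, SE 0.085). Mrpl10, Mrpl11 and Mrpl54 differed by -0.052 to -0.11. Other large subunit genes without overlap were Mrpl32 (-0.27, SE 0.12), Mrpl40 (-0.25, SE 0.10), Mrpl48 (-0.21, SE 0.10) and Mrpl43 (-0.094, SE 0.075). A higher mean in NZB_W was found for Mrpl9 (0.12, SE 0.089), Mrpl51 (0.065, SE 0.061) and Mrpl20 (0.020, SE 0.082), all with overlap.

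The medians of the subunits lay close together. The median log2 difference was -0.096 over the 47 large subunit genes, of which 44 were lower in NZB_W, and -0.11 over the 29 small subunit genes, of which 26 were lower. The large minus small difference was 0.019. On single arrays the large minus small median had a pooled SD within groups of 0.044. Assigning Mrps18a and Mrps30 to the large subunit and leaving out Mrps36 gave -0.11 over 49 large and -0.11 over 26 small subunit genes. By ancestry, the 29 large subunit proteins with a bacterial homolog had a median of -0.094 and the 20 mitochondria-specific ones -0.12. In the small subunit these medians were -0.046 over 16 genes and -0.15 over 10 genes. Mrps18a (large subunit) and Mrps28 (small subunit) were counted here as mitochondria-specific, although the protein of Mrps18a is a homolog of bacterial S18 and that of Mrps28 resembles bacterial S1.

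Of 13 members whose human counterparts are mutated in inherited mitochondrial disease, 12 were lower on average in NZB_W. Their median was -0.11 on the log2 scale, the same as the whole family to that precision. Mrpl3, one of those linked to human cardiomyopathy, read 9.38, 9.56 and 9.22 on NZB_W arrays and 9.55 and 9.68 on NZW arrays (-0.23, SE 0.12). Mrps22, whose human defects affect heart and kidney tubules, read 8.70, 8.83 and 8.31 against 8.72 and 8.83 (-0.16, SE 0.17). Both genes overlapped between groups, and in both NZB_W array 3 gave the lowest value. Mrps14, Mrps28 and Mrpl44, described above, were the members of the list without overlap (23.1%), beside 23.7% of all members and 9.83% of all genes. Mrps34 was the one with a higher mean in NZB_W.

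Second probe sets were available for 32 members. Their 55 other bright probe sets had a median log2 difference of -0.081, and 42 of the 55 were lower in NZB_W. When all 22819 bright probe sets were tested separately, 0 of the 131 probe sets of members passed, beside 0.0219% of all probe sets, and 5 had an unadjusted limma p under 0.05, beside 5.25% of all probe sets. The widest gap between 2 probe sets of a gene was 0.46, in Mrps5. Mrpl30 and Mrpl53 had no probe set of their own and are not counted as members. The probe set that matches both Mrpl53 and its neighbour Ccdc142 read 9.82, 10.04 and 9.81 on NZB_W arrays and 10.09 and 10.42 on NZW arrays (-0.37, SE 0.14, limma unadjusted p = 0.0471, adjusted p = 0.883), and its signal cannot be divided between these genes.

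Proteins of the same ribosome with other symbols included an exception. Gadd45gip1, also called CRIF1, a large subunit protein near the tunnel exit, read 7.51, 7.85 and 7.53 on NZB_W arrays and 6.98 and 7.01 on NZW arrays, with every NZB_W heart above both NZW hearts. Its log2 difference of 0.64 (SE 0.13, limma unadjusted p = 0.00489, adjusted p = 0.668), or 1.56-fold higher, exceeded that of any of the 76 members in size. It ran from 0.53 to 0.70 with any single array left out and was 0.71 without both extreme arrays. Of the other 3 measured, Chchd1, Ptcd3 and Dap3 differed by -0.28 (SE 0.12), -0.20 (SE 0.13) and -0.034 (SE 0.073), all small subunit proteins.

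Most factors that build and serve the mitochondrial ribosome also had lower means in NZB_W. Assembly factors were lower on average in NZB_W for 22 of 25 genes (median log2 difference -0.15). Among them Trmt2b, a methyltransferase of mitochondrial RNA, differed by -0.26 (SE 0.079, limma unadjusted p = 0.0231) and Fastkd2, an RNA-binding protein of mitochondrial RNA granules, by -0.31 (SE 0.11, limma unadjusted p = 0.0399), neither passing after adjustment. Without both extreme arrays, Trmt2b stood at -0.25 and Fastkd2 at -0.15. Aminoacyl-tRNA enzymes of mitochondria were lower for 16 of 19 genes (median -0.13), and translation factors for 10 of 12 (median -0.075). Yars2, the tyrosyl-tRNA synthetase, differed by -0.45 (SE 0.15, limma unadjusted p = 0.0343) and by -0.21 without both extreme arrays. In none of these lists did a gene pass the adjusted threshold of 0.05, and an unadjusted p under 0.05 was found for 2 of 25 assembly factors, 2 of 19 aminoacyl-tRNA enzymes and 0 of 12 translation factors, each of the 4 lower in NZB_W, beside 3.03% of all genes in that direction.

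Regulators of mitochondrial biogenesis were lower for 8 of 12 genes, with a median log2 difference of -0.042. An unadjusted p under 0.05 was found for 2 of them, both lower, beside 3.03% of all genes, and 5 (41.7%) had all NZB_W values below NZW, beside 9.83%. Ppargc1a, the coactivator PGC-1alpha, was among these 5, at 9.97, 10.04 and 9.73 on NZB_W arrays and 10.37 and 10.09 on NZW arrays (-0.32, SE 0.14, limma unadjusted p = 0.0729), and its other 4 bright probe sets gave -0.87 to -0.19. Polrmt, the mitochondrial RNA polymerase, read 8.68, 8.75 and 8.55 on NZB_W arrays and 8.89 and 8.97 on NZW arrays (-0.27, SE 0.085, limma unadjusted p = 0.0271). Tfb2m, its initiation factor, read 9.92, 10.06 and 9.79 against 10.16 and 10.58 (-0.45, SE 0.16, limma unadjusted p = 0.0387). Neither passed after adjustment, and without both extreme arrays they stood at -0.18 and -0.17. Markers of mitochondrial mass, such as citrate synthase and the Vdac channels, were lower for 4 of 10 genes and had a median of 0.015. Of these 10, 2 (20.0%) had all NZB_W values below NZW, beside 9.83% of all genes. They were Vdac3 (-0.13, SE 0.11) and Hspe1 (-0.22, SE 0.098). In 1 gene, Vdac2, all lay above, beside 7.60% of all genes.

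For comparison, 91 respiratory chain genes were taken by the symbol prefixes of respiratory chain and ATP synthase subunits, such as Nduf and Uqcr. The list can include assembly factors that share a prefix and is not limited to subunits. These 91 genes had a median log2 difference of -0.068, with 79 lower in NZB_W. In 21 (23.1%) all NZB_W values lay below NZW, beside 23.7% of the mitochondrial ribosomal proteins and 9.83% of all genes. Cytosolic ribosomal proteins, 45 genes, had a median of 0.0045, with 19 lower and 26 higher, of which 1 (2.22%) had all NZB_W values below NZW and 4 had all above. Without both NZB_W array 3 and NZW array 2, the respiratory chain median was -0.0053. The plot of medians by setting shows the mitochondrial ribosomal proteins below 0 in all settings run, and nearest to all genes when both extreme arrays were left out.

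**Figure D4:**
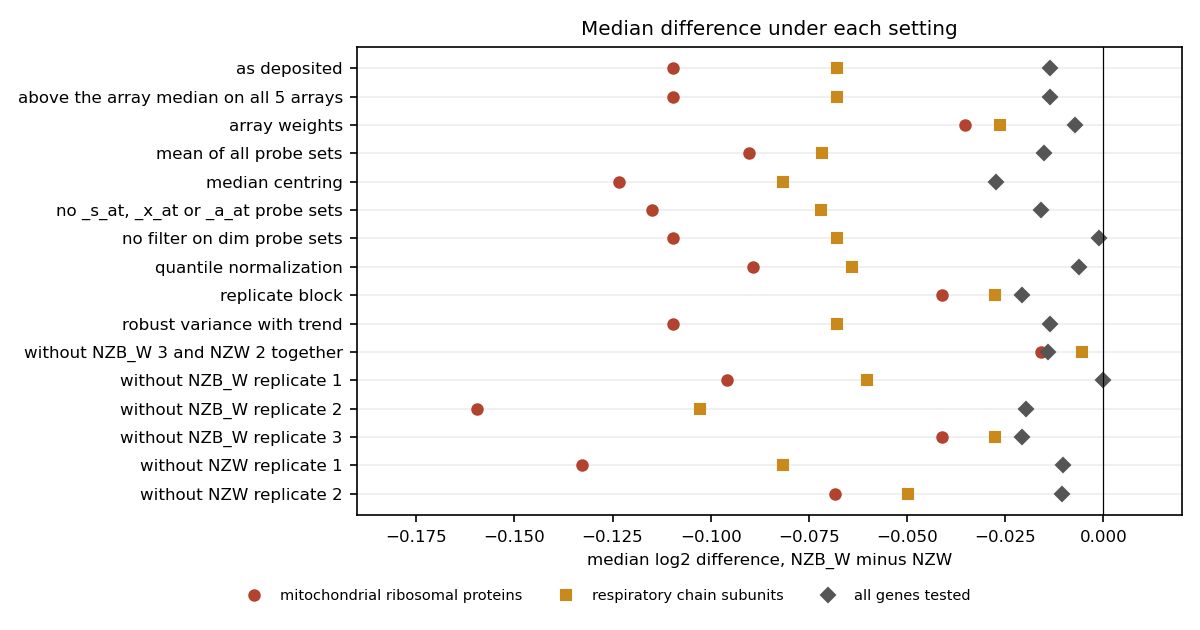
Median log2 difference, NZB_W minus NZW, of the mitochondrial ribosomal proteins (circles), the genes with respiratory chain prefixes (squares) and all genes tested (diamonds). Medians are shown for the values as deposited and 15 alternative settings. The members' median runs from -0.16 without NZB_W replicate 2 to -0.016 without NZB_W 3 and NZW 2 together, and the replicate block equals the setting without NZB_W replicate 3.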

How the data were processed

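The deposited values are log2 expression levels, 1 per probe set and array, made by the authors from arrays hybridized with cRNA from 6 µg of total RNA, per the labels' protocols. RMA, GCRMA and Partek appear in the submitters' processing notes with neither version nor role, and it is not stated which of them gave the values. RMA and GCRMA both normalize arrays together and differ in the background removed from dim probe sets. Every column matched a sample (0 other columns), and groups and replicate numbers come from the titles. Values ran from 1.91 to 14.33, and the precision is limited by having 5 arrays.

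Of 45101 probe sets, 64 controls were left out of the gene analysis and 34945 others carried 1 gene symbol. The brightest probe set stood for a gene, and 11902 genes above the array median on at least 2 arrays were tested with limma 3.58.1 (R 4.3.3), a two-sided test with lmFit and eBayes, with p-values adjusted by Benjamini-Hochberg over the 11902 genes (threshold 0.05). Each SE is the moderated one from limma, and a fold is the log2 difference taken out of the log. Lists are described by counts and medians, with no test. The test was checked on simulated data.

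The members and lists were chosen with earlier results of these data known. The naming rule took up to 5 members of each subunit and direction by smallest p, the disease, stalk and tunnel lists, the Mrps18 genes, Mrps30, Mrps36 and up to 2 genes of each other list. Other members without overlap or with a higher mean, the shared Mrpl53 probe set and the neighbouring genes were named after their values were seen. So were Col1a1 and Col3a1. All 76 symbols matched RefSeq names. Alternatives covered normalization, filters, probe set choice, variance model, array weights, a replicate block and leaving out arrays. Figures were drawn with matplotlib 3.10.9.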

Additional observations from a re-analysis of the deposited data

How the results depend on the processing

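No member passed the adjusted limma threshold under any of the 15 alternatives, and the members' median stayed below 0 in all of them, with 35 of the 76 genes lower in NZB_W wherever measured. The count of all genes called, 1 as reported, was 8 with array weights, 5 with the mean of all probe sets, 2 without probe sets of types _s, _x and _a, 0 with the replicate block, 0 without both NZB_W array 3 and NZW array 2, and 0 to 1 with any single array left out. The members' median, -0.11 as reported, was -0.035 with array weights, -0.016 without both arrays and -0.16 to -0.041 with any single array left out. Whether the replicate numbers pair the samples cannot be told from these values. Deviations of same-numbered arrays from their group means correlated at -0.26 and 0.10. With 2 NZW arrays these deviations are mirror images, so each correlation has the opposite sign with the other NZW array. With the replicate number as a block, NZB_W array 3 has a block of its own and carries no weight, so the members' median was -0.041, as without that array, and large minus small was 0.063. That difference, 0.019 as reported, ran from -0.021 to 0.063 with any single array left out. Single members changed sign in 23 genes with array weights, 30 without both arrays, 19 without NZB_W array 3 or with the block, 9 with the mean of all probe sets and 0 to 7 under each other setting. The cause of these shifts was not tested. No scanner files were analysed here, so detection over background is unknown.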

Other observations

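Several members had the same value, to the decimals deposited, on at least 3 arrays (Mrpl19, Mrpl15 and Mrps18b). Mrpl50 had the widest spread within groups, at 9.19, 9.16 and 8.27 on NZB_W arrays and 9.18 and 8.67 on NZW arrays, while its dimmer probe set read 7.34, 7.50 and 7.41 on NZB_W arrays and 7.40 and 7.49 on NZW arrays. Mrpl49 and Mrpl14 were likewise lowest on NZB_W array 3, with 8.06, 8.29 and 7.54 against 8.15 and 8.11 for Mrpl49, and 9.06, 9.27 and 8.55 against 9.25 and 9.13 for Mrpl14. Tmem63b, which starts 131 bases from Mrpl14 on the other strand, read 7.38, 7.57 and 7.52 on NZB_W arrays and 7.72 and 7.80 on NZW arrays, a log2 difference of -0.27 (SE 0.085, limma unadjusted p = 0.0265, adjusted p = 0.859).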
